A study of Ovis aries and Mus musculus with 10 samples.

Results

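The microRNAs described here are the 4 arms of the miR-199 and miR-214 genes that the array's gene names list as mmu-miR-199a-5p, mmu-miR-199b, mmu-miR-199b* and mmu-miR-214. They were taken by name from the non-control spots, and they are 4 of the 567 mouse miRNAs on the array. Mammary gland RNA of sheep and of CD1 mice was hybridised to 10 one-colour Agilent arrays whose probes are for mouse miRNAs, and each combination of stage and day has a single array. Gland on the sheep arrays came from animals in cycle at day 15, from gestation at days 14, 64 and 125, and from lactation at day 60. The mouse arrays held gland from virgin animals, from gestation at days 10 and 17, and from lactation at days 2 and 10. Per the labels none of the animals was treated, and no genotype other than the CD1 stock is named. Whether an array holds RNA of 1 animal or of several is not given in the sources used here. Cycle and virgin arrays together are called not pregnant below.

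A miRNA hairpin yields a pair of arms, and the star in miR-199b* marks the arm that was taken for the lesser one when it was named. In mouse, miR-199a-2 and miR-214 are cut from a single long transcript, Dnm3os, which runs against the strand of the dynamin gene Dnm3. Other miR-199 hairpins lie against Dnm2 (miR-199a-1) and Dnm1 (miR-199b). The transcript and its miRNAs are known from mesenchyme, fibroblasts and the developing skeleton, where the transcription factor Twist1 switches them on. miR-199a-5p is known to repress caveolin-1 in lung fibroblasts, and miR-214 is known for limiting calcium overload in mouse heart muscle. In the mammary gland, ducts and alveoli of epithelium are embedded in fibroblasts, fat, vessels and nerves, and the alveolar epithelium expands through gestation to fill most of the lactating gland.

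Each member was read by 2 probes of 10 spots each. On the mm9 build of the mouse genome that the file headers name, the miR-199a-5p probes match chromosome 1 from 164147979 to 164147997, and the miR-199b probes match the same chromosome from 164148016 to 164148035, a stretch downstream in the same hairpin. The files name both miR-199b and miR-199a-3p for the miR-199b probes, so the 3p arms of the miR-199 genes cannot be told apart and "miR-199b" stands for them together. The miR-214 probes match chromosome 1 from 164153578 to 164153590, over only 12 and 13 bases. The miR-199b* probes match chromosome 2 from 32174006 to 32174027, so this arm comes from a gene on another chromosome than the other targets. The array also carried miR-214*, the other arm of the miR-214 hairpin, which was not well above background on any of the 10 arrays. In the sheep assembly ARS-UI_Ramb_v3.0, RefSeq places MIR199A on chromosome 12 from 38901325 to 38901428, within the span of DNM3 from 38535397 to 39182416. How far the sheep miRNAs match the mouse probes was not tested.

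Levels are given as log2 of the signal relative to the array's own 75th percentile, taken over 94 miRNAs that every array detected, so 0 is the level of that percentile. Its raw value was 788 intensity units in sheep lactation, against 939 to 1998 on the other sheep arrays, and 246 and 394 in mouse lactation, against 598 to 937 on the other mouse arrays. A floor of 0.029 (log2 of -5.11) replaced any lower scaled value. The numbers of detected miRNAs lay between 125 and 208 per array. Mouse virgin and mouse gestation day 10 were the arrays of slide 2, and slide 1 held the other 8. The members were detected on 10 of 10 arrays, except miR-214 on 9 of them, and none of their 800 spots was saturated. The levels of different miRNAs are not ranked against each other, since each probe has its own brightness. In the sums over lists of miRNAs given below, bright probes weigh most.

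All 4 miRNAs were lower in lactation than at any other stage, in sheep and in mouse. miR-199b, the arm shared with miR-199a-3p, stood in sheep at 0.88 in cycle, at 0.40, 0.0036 and -0.55 on gestation days 14, 64 and 125, and at -1.61 in lactation. In mouse it stood at 0.96 in virgin gland, at 1.10 and -0.14 on gestation days 10 and 17, and at -1.11 and -2.07 on lactation days 2 and 10. Its sheep value was lower on each array than on the one before, whereas in mouse the virgin and gestation day 10 arrays were both high and the 3 later arrays went down one after another.

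miR-199a-5p, the opposite arm of the miR-199a hairpin, stood in sheep at -0.78 in cycle, at -0.59, -0.18 and -2.60 on gestation days 14, 64 and 125, and at -3.47 in lactation. The mouse values were -1.96 in virgin gland, -1.77 and -2.44 on gestation days 10 and 17, and -3.69 and -5.09 on lactation days 2 and 10. Here the sheep arrays fell into a high set up to gestation day 64 and a low set from day 125 on. On mouse lactation day 10 its spots were detected but not well above background, with a mean signal of 7.22 ± 0.74 intensity units (SE over 20 spots).

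miR-199b*, the 5p arm of the miR-199b hairpin, stood in sheep at -2.44 in cycle, at -2.61, -2.81 and -4.19 on gestation days 14, 64 and 125, and at -5.01 in lactation. In mouse it was higher, at 0.65 in virgin gland, at 0.49 and -0.86 on gestation days 10 and 17, and at -1.89 and -2.55 on lactation days 2 and 10. Of the mouse values, only that of lactation day 10 lay within the range of the sheep values. In both species the lactation arrays were the lowest ones.

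miR-214, which in mouse shares the Dnm3os transcript with miR-199a, stood in sheep at -2.35 in cycle, at -2.46, -3.20 and -3.64 on gestation days 14, 64 and 125, and at the floor in lactation. The mouse values were -1.91 in virgin gland, -2.09 and -4.00 on gestation days 10 and 17, -5.09 on lactation day 2, and the floor on day 10. Before scaling, miR-214 gave 16.2 ± 0.74 intensity units in sheep lactation, 11.6 ± 1.08 on mouse lactation day 2 and -2.32 ± 0.68 on day 10 (SE over 17 to 20 spots), and on the last of these it was not detected. All 3 lactation arrays were thus at or beside the floor, so the fitted changes of miR-214 in lactation depend on where that floor lies.

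**Figure D1:**
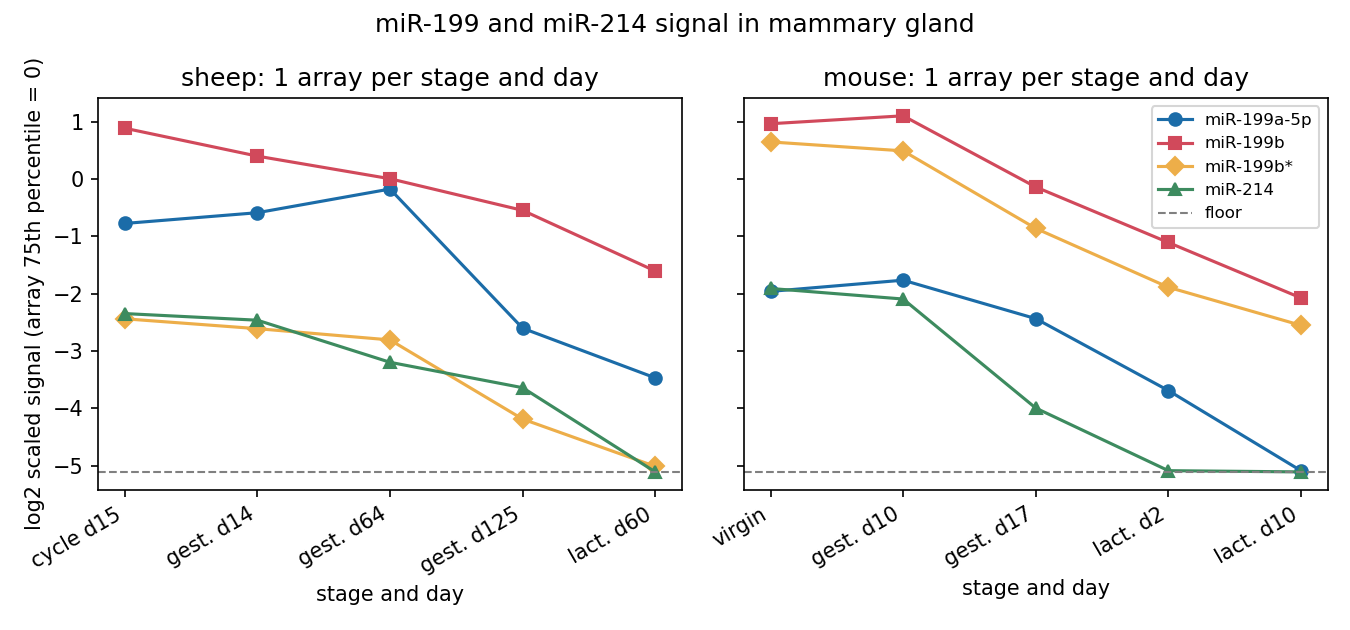
Scaled signal (y axis, log2, 0 is the 75th percentile of each array) of the 4 miRNAs on each array, by stage and day (x axis), in sheep and in mouse; each point is 1 array and the dashed line is the floor at -5.11. The lactation points are the lowest of each line, and miR-214 reaches the floor in both species.

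The first comparison set lactation (3 arrays) against gestation (5 arrays) over both species. miR-199a-5p averaged -4.08 ± 0.88 in lactation and -1.51 ± 1.09 in gestation (SD over the arrays of both species, here and below). miR-199b averaged -1.60 ± 0.48 in lactation and 0.16 ± 0.62 in gestation. miR-199b* averaged -3.15 ± 1.65 in lactation and -2.00 ± 1.82 in gestation, means that pool the high mouse and the low sheep levels. miR-214 averaged -5.10 ± 0.01 in lactation, where all arrays lay at or beside the floor, and -3.08 ± 0.79 in gestation. With species in the model, the log2 changes were -2.30 ± 0.63 for miR-199a-5p, -2.06 ± 0.47 for miR-214, -1.95 ± 0.48 for miR-199b* and -1.84 ± 0.40 for miR-199b (SE). For miR-199b and miR-199b*, which were above background on all 3 lactation arrays, that is a signal 3.57 and 3.86 times lower in lactation. The miR-199b* value rests in part on sheep lactation, where it lay close to the floor at -5.01, with 50% of its spots above background. The change of miR-214 is set by the floor, and was -2.85 ± 0.61 with a floor 4 times lower. That of miR-199a-5p includes 1 lactation array on which it was not well above background. None of the 4 passed the threshold of 0.05 after adjustment over the 213 miRNAs tested by limma, with adjusted p of 0.118, 0.0759, 0.0877 and 0.0708 in that order. Of 24 alternatives, left-out arrays included, 19 called none of the 4. All 4 passed with a floor 4 times lower and with no scaling between arrays, which by itself shifted the median of all miRNAs by -0.67. Of all 213 tested, 2.82% were called in either direction and 1.41% as lower, and 34 had an unadjusted p under 0.05, among them all 4 members. Whole gland was measured, so here and in the other stage comparisons fewer cells that carry a miRNA and less of the miRNA per cell cannot be told apart.

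In size the 4 changes were the 4 lowest of the 213, although none was called. Their median was -2.00, while the median over all 213 was -0.0018. For each of them every lactation array lay below every gestation array of its species, a pattern that 9.39% of the tested miRNAs showed. Within sheep alone lactation minus gestation was -2.35 for miR-199a-5p, -1.56 for miR-199b, -1.81 for miR-199b* and -2.01 for miR-214. Within mouse alone it was -2.29, -2.07, -2.03 and -2.05 in the same order. The change differed between sheep and mouse by -0.06 ± 1.55, 0.52 ± 0.94, 0.22 ± 1.17 and 0.04 ± 1.15 in that order (sheep minus mouse, SE, limma), with an adjusted p of 1 each. For this test 0.939% of the miRNAs were called and none of the members, and 16 miRNAs, no member among them, had an unadjusted p under 0.05. With 4 residual degrees of freedom the errors are wide, so a difference of the size of the change itself was not detectable.

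**Figure D2:**
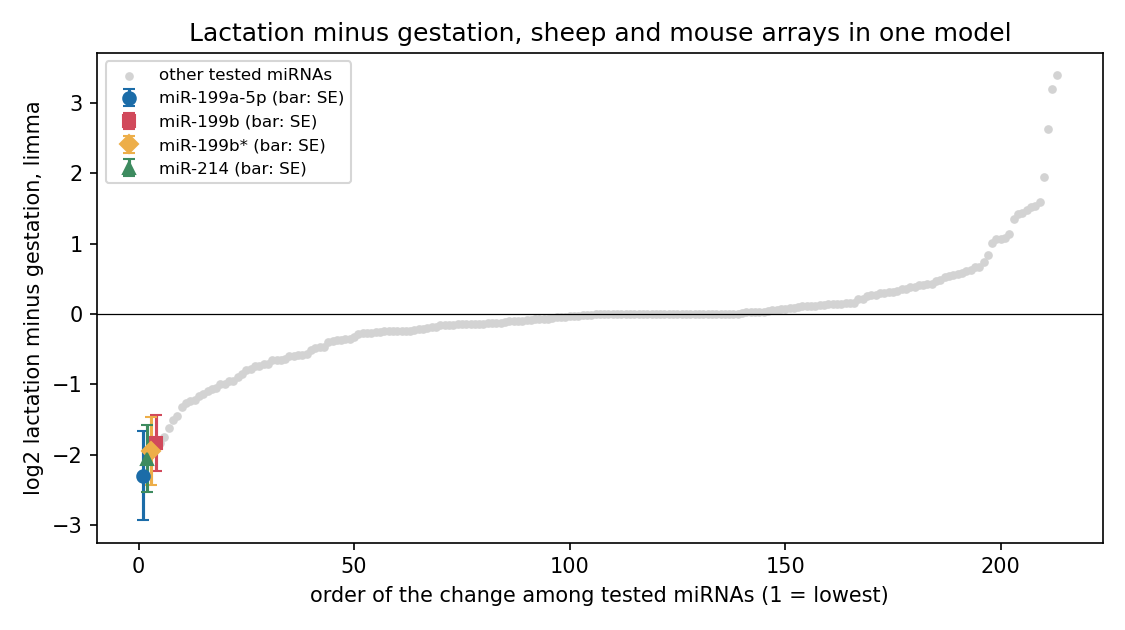
Log2 difference of lactation minus gestation (y axis, limma, both species) for the 213 tested miRNAs in order of size (x axis); the coloured symbols are the 4 members with their standard error. The members hold the 4 lowest places, between -2.30 and -1.84.

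Against not pregnant gland (2 arrays), miR-214 and miR-199b fell in lactation. miR-214 averaged -5.10 ± 0.01 in lactation (SD, n = 3) and -2.13 ± 0.31 in not pregnant gland (SD, n = 2), a change of -2.99 ± 0.58, with an adjusted p of 0.0434 in limma. Its lactation arrays lay at or beside the floor, which sets that mean and its small SD, so the change and its p depend on the floor. miR-199b averaged -1.60 ± 0.48 in lactation and 0.92 ± 0.06 in not pregnant gland, a change of -2.57 ± 0.49 with the same adjusted p of 0.0434 in limma. miR-199b* changed by -2.75 ± 0.59 and miR-199a-5p by -2.55 ± 0.77, with adjusted p of 0.0528 and 0.138 in limma, so these missed the threshold. Of all tested miRNAs, 2.82% were called as lower and 3.76% in either direction. The 4 members held places 1, 2, 4 and 5 from the lowest, with a median of -2.66 against a median of 0 over all 213. Every lactation array lay below every other array of its species for all 4, as it did for 7.98% of the miRNAs tested.

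Both calls rested on single arrays. They were lost together when any of 7 single arrays was left out. Without sheep gestation day 125 miR-199b* alone was called, and without mouse gestation day 17 miR-214 alone. With slide as a term the changes were -2.21 ± 0.51 for miR-214 and -2.09 ± 0.54 for miR-199b, with adjusted p of 0.186 and 0.217 in limma. Over the alternatives and left-out arrays the adjusted p lay between 0.0249 and 0.412 for miR-214 and between 0.00364 and 0.358 for miR-199b, and all changes stayed below 0.

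Gestation set against not pregnant gland gave smaller values. The changes were -0.94 ± 0.53 for miR-214, -0.80 ± 0.54 for miR-199b*, -0.73 ± 0.45 for miR-199b and -0.25 ± 0.71 for miR-199a-5p, with adjusted p of 1 each in limma. The share of all tested miRNAs called in this comparison was 0.469%, and no member was among them or among the 5 with an unadjusted p under 0.05. The days of gestation were not alike, and in both species the latest gestation array was lower than the earlier ones for all 4 members. On slide 2, which held only virgin and gestation day 10 mice, gestation minus virgin was 0.20 for miR-199a-5p, 0.14 for miR-199b, -0.16 for miR-199b* and -0.18 for miR-214.

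With the percentile scaling, the lower values appeared late in the series of arrays. Each step between neighbouring arrays rests on 1 array on either side and was not tested. In sheep the median step of the 4 members was -0.14 for gestation day 14 minus cycle and -0.30 for day 64 minus day 14, with 3 of 4 members below 0 in each. It was then -0.97 for day 125 minus day 64 and -0.96 for lactation minus day 125, with all 4 below 0. In mouse the median step was -0.0089 for gestation day 10 minus virgin, with 2 of 4 below 0, then -1.30 for day 17 minus day 10, -1.06 for lactation day 2 minus gestation day 17 and -0.82 for lactation day 10 minus day 2, with all 4 below 0 in each. The median step over all tested miRNAs was 0 throughout.

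All members were lower on the late arrays, but the size of each step differed among them. miR-199a-5p had a sheep step of -2.43 for day 125 minus day 64, against -0.55 for miR-199b, -1.38 for miR-199b* and -0.44 for miR-214. In the mouse step of gestation day 17 minus day 10 the order was another one, with -1.90 for miR-214, -1.35 for miR-199b*, -1.24 for miR-199b and -0.67 for miR-199a-5p. That mouse step crosses the slides, and slide and day cannot be told apart in it. Late steps are those after sheep gestation day 64 and after mouse gestation day 10. These are the steps in which every member was below 0, so that all 20 values were below 0 is no test. The smallest was -0.02, for miR-214 in mouse lactation day 10 minus day 2, which ended at the floor. In the value table the authors deposited, 15 of the 20 were below 0, and the sheep step of day 125 minus day 64 was 0.65 for miR-199b and 0.76 for miR-214. The early steps were lower in that table, between -1.31 and -0.63 for sheep gestation day 14 minus cycle and between -1.04 and -0.66 for mouse gestation day 10 minus virgin. The median over all tested miRNAs moved there too, to -0.20 in the sheep step and -0.36 in the mouse step. With the percentile taken over all miRNAs the sheep step of the members lay between -1.05 and -0.38, against a median of -0.21 over all tested. How early the members were lower thus depended on the scaling.

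After each miRNA was centred within each species, the members followed each other over the 10 arrays with Pearson r between 0.853 (miR-199a-5p and miR-214) and 0.980 (miR-199b and miR-199b*). The arrays share their scaling, and the values are a description. Among 96 other tested miRNAs at the floor on at most 3 arrays, miR-99a was most like the members' mean, with r of 0.969, followed by miR-100 (0.957), miR-130a (0.948), miR-125b-5p (0.940) and miR-361 (0.933). miR-99a and miR-100 are known repressors of mTOR, and miR-125b is encoded in clusters with them. In lactation against gestation miR-99a fell by 1.83 ± 0.33, miR-130a by 1.33 ± 0.24 and miR-361 by 0.99 ± 0.19, each with an adjusted p of 0.0486 in limma. These are 3 of the 6 calls of that comparison, and leaving out single arrays left 0 to 5 calls over all miRNAs. They were picked on the same arrays for likeness to members that were lowest in lactation, so their fall is no separate evidence. miR-100 changed by -1.50 ± 0.43 and miR-125b-5p by -1.62 ± 0.38, with adjusted p of 0.122 and 0.0759 in limma. The miRNAs that ran most opposite were miR-212 (-0.985), miR-720 (-0.949) and miR-148a (-0.948), the last of which is abundant in milk. Of these miR-212, picked in the same way, was also called, with a rise of 1.53 ± 0.25 and an adjusted p of 0.0486 in limma.

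Other miRNAs of connective tissue did not all go with the members. In lactation against gestation the smooth muscle list had 2 of its 3 miRNAs on the array tested and none called. miR-145 and miR-143, which keep smooth muscle cells differentiated, changed by -0.58 ± 0.63 and -0.13 ± 0.35, with adjusted p of 0.774 and 0.992 in limma. The matrix and fibrosis list had 4 of 5 tested and none called, with a median of 0.31. There miR-21, known for its rise in fibrotic tissue, changed by -0.79 ± 0.30 (adjusted p of 0.243 in limma), and miR-29a, miR-29b and miR-29c, which repress collagens, by 0.27, 0.66 and 0.35.

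Of 13 other miRNAs abundant in fibroblasts, all tested, 2 fell (miR-99a and miR-130a, above), none rose, and 10 had a change below 0, with a median of -0.14. Of 17 miRNAs of the imprinted Dlk1-Dio3 region, which are used as markers of mesenchyme, 9 were tested and none was called. Their median of -0.03 is set by the floor, since 7 of the 9 lay there on 7 or more arrays. The summed scaled signal of the 17 was 0.033 and 0.012 in mouse lactation, with none of them well above background, against 0.21 and 0.17 in mouse gestation, with 3 above. In sheep it was 0.11 in lactation, against 0.52, 0.23 and 0.53 in gestation. The largest of these changes were -1.45 ± 0.36 for miR-127 and -1.22 ± 0.39 for miR-379 (adjusted p of 0.0877 and 0.165 in limma). The background over all tested miRNAs was a median of -0.0018 and 1.41% called lower.

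Markers of the cell types of the gland differed in how they went with the stages. The summed scaled signal of 10 epithelial miRNAs, which include the miR-200 family, was 1.89 in virgin mice, 3.23 and 7.00 on mouse gestation days 10 and 17, and 11.5 and 15.1 on lactation days 2 and 10. In sheep it was 5.58 in cycle, 4.87, 3.89 and 11.7 on gestation days 14, 64 and 125, and 10.2 in lactation. Between 6 and 10 of the 10 were well above background on each array, and miR-182 was above it on 3 mouse arrays and on no sheep array. In lactation against gestation none of these 10 was called by limma, and their median change was 0.73. Of the 10, 2 had a change below 0, miR-205 at -1.04 ± 0.60 and miR-203 at -0.24 ± 0.15. In sheep the mean log2 level of the 10 was -1.98 in cycle and -2.05 in lactation, although the sum was higher in lactation. In mouse that mean was -3.14 in virgin gland and -0.96 on lactation day 10.

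The mesenchyme list has 7 miRNAs on the array, of which the 4 members are part, so it is no separate evidence. Its sum was 4.23 in virgin mice, 2.30 to 4.38 in mouse gestation and 0.83 to 1.21 in mouse lactation, and in sheep 3.19 in cycle, 1.27 to 2.92 in gestation and 0.86 in lactation. The smooth muscle list shares miR-143 and miR-145 with it. That list's sum was 0.19 in virgin mice, 0.30 to 0.59 in mouse gestation and 0.37 to 0.39 in mouse lactation. In sheep it was 0.38 in cycle, 0.29 to 0.78 in gestation and 0.39 in lactation. The endothelial sum (2 miRNAs) was 1.41 to 2.08 in mouse lactation and 1.88 to 2.22 in mouse gestation, and in sheep 2.58 in lactation and 1.48 to 1.94 in gestation. The leukocyte sum (5 miRNAs) was 0.30 to 0.40 in mouse lactation and 0.52 to 0.61 in mouse gestation, and in sheep 0.24 in lactation and 0.76 to 1.09 in gestation. The adipocyte sum (5 miRNAs) was 3.33 to 3.89 in mouse lactation and 2.02 to 2.26 in mouse gestation, and in sheep 1.84 in lactation and 1.23 to 1.5 in gestation. Of these 5, miR-103 rose in lactation against gestation, by 1.01 ± 0.18 with an adjusted p of 0.0486 in limma. Another 3 of them had a change below 0, and the median of the 5 was -0.06. The red cell sum (3 miRNAs) was 2.60 to 3.96 in mouse lactation and 1.72 to 1.85 in mouse gestation, and in sheep 0.62 in lactation and 0.18 to 0.21 in gestation. In virgin mice the endothelial, leukocyte, adipocyte and red cell sums were 1.88, 0.53, 2.33 and 5.97. In sheep cycle they were 1.13, 0.88, 1.22 and 0.15. The red cell sum was thus higher in virgin mice than in mouse lactation. Striated muscle miRNAs summed to 1.94 in virgin mice and to 0.75 on mouse gestation day 17, and to 0.093 or less on the other arrays. The liver marker miR-122 and the 2 neuronal markers were not well above background on any array. The part of any of these cell types in the values of the members was not tested.

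**Figure D3:**
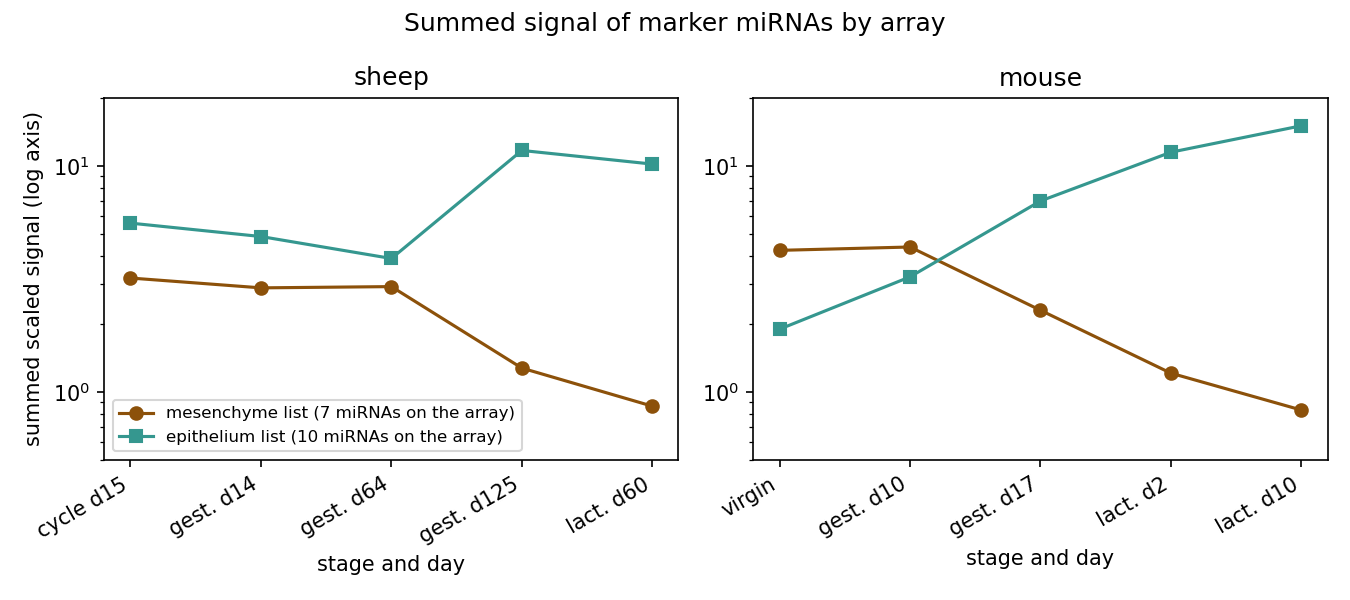
Summed scaled signal (y axis, log scale, arbitrary units relative to the 75th percentile) of the mesenchyme and epithelium lists on each array, by stage and day (x axis), in sheep and in mouse. The epithelium sum is 10.2 or more on the lactation arrays and on sheep gestation day 125, and the mesenchyme sum, which includes the 4 members, is lowest in lactation. The sum of the smooth muscle list (not plotted), which shares miR-143 and miR-145 with the mesenchyme list, was not lowest in lactation.

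Between the species, miR-199b* was the member that differed past the threshold. It was lower in sheep, with a difference of -2.97 ± 0.41 on the log2 scale (sheep minus mouse, SE) and an adjusted p of 0.00293 in limma. miR-199b differed by -0.29 ± 0.35, miR-214 by -0.12 ± 0.41 and miR-199a-5p by 1.01 ± 0.55 (sheep minus mouse), with adjusted p of 0.597, 0.909 and 0.251 in limma. The background here is high, with 13.1% of all tested miRNAs called lower in sheep, 8.45% called higher and 21.6% called in either direction. The miR-199b* call held under all alternatives and with any single array left out, with adjusted p between 7.44e-07 and 0.0438 in limma, and slide 1 alone gave -2.55 ± 0.53. It missed the pattern in which every sheep array lies below every mouse array, which 9.86% of the tested miRNAs showed.

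The same contrast appears within each array, where scaling cancels. Taking miR-199b* minus miR-199b, arms that include those of 1 hairpin, the log2 difference was -3.32, -3.01, -2.81, -3.64 and -3.41 on the sheep arrays in stage order. On the mouse arrays it was -0.32, -0.61, -0.72, -0.78 and -0.48. The 2 species did not overlap in it. Against miR-199a-5p the sheep values lay between -2.63 and -1.54 and the mouse values between 1.57 and 2.61. These differences were chosen after the values had been seen and carry no test. The zero of such a difference has no meaning, as the probes differ in brightness, and only the gap between species can be read. The gap also differed between the 2 miR-199b* probes. On sheep gestation day 125 they gave 5.88 and 97.2 intensity units, against 256 and 775 on mouse gestation day 17. The 75th percentiles of these arrays were 939 and 937. A lower level of this arm in sheep and a lower response of the mouse probes to sheep RNA cannot be told apart with these arrays.

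**Figure D4:**
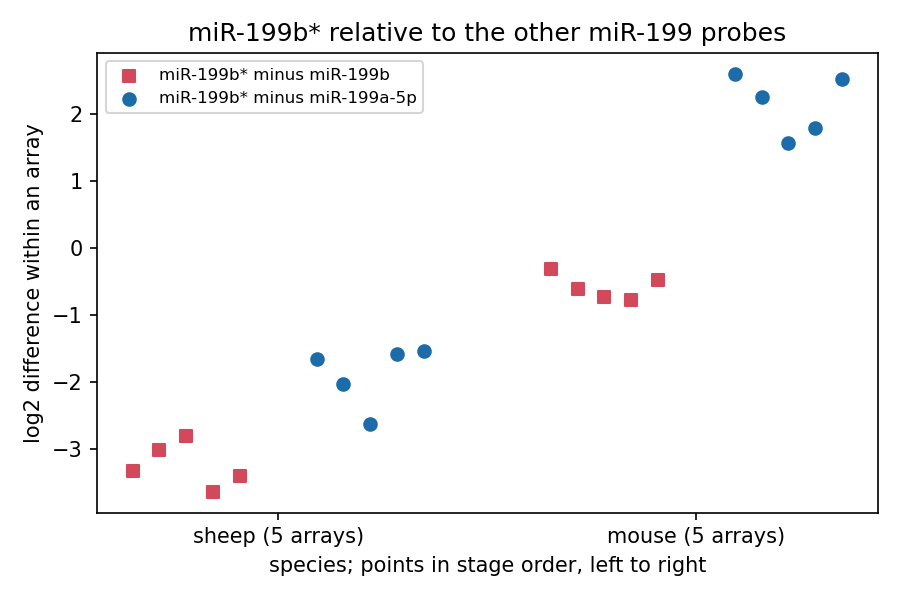
Log2 difference within an array (y axis) of miR-199b* minus miR-199b (squares) and miR-199b* minus miR-199a-5p (circles) for the 5 sheep and 5 mouse arrays (x axis); each symbol is 1 array, in stage order. Sheep lie between -3.64 and -2.81 for the squares, against -0.78 to -0.32 in mouse.

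The 2 probes of a member mostly gave the same direction in lactation minus gestation. For miR-199b they gave -1.69 and -1.51 in sheep, and -1.98 and -2.10 in mouse. They parted where one of them was dim. The shorter-target miR-214 probe gave -0.53 in sheep and -0.27 in mouse, where the other gave -2.15 and -2.38. One miR-199b* probe was at the floor on the sheep arrays, with a change of 0, where the other gave -1.84. The dimmer miR-199a-5p probe gave -1.78 in sheep and -0.65 in mouse, against -2.37 and -2.21 for the brighter one.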

How the data were processed

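miRNA in mammary gland was measured on 10 one-colour Agilent arrays, 5 of sheep and 5 of mouse. The deposited scanner files hold intensity values; per the file headers the scanner software subtracted background and removed spatial trends, and arrays were not normalized to each other. Flag columns of the deposited files (0 or 1) marked detection, signal above background and outlier spots. The headers name Agilent Feature Extraction 10.5.1.1, and the submitters' processing notes name 9.5. The authors' own value table, also deposited as intensity, was equal to the scanner's total signal per miRNA times 1 constant per array; the basis of these constants, and so any centring, is unknown, and the direction is that of signal.

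Outlier spots were left out (25 of the 800 spots of the members), spots were averaged per probe and probes per miRNA. The scale of each array was its 75th percentile over the 94 miRNAs that every array detected. Values under 0.029 were set to that floor, the highest among arrays of the 5th percentile of detected miRNAs, and log2 was taken. Tests covered the 213 miRNAs with detection on 3 arrays or more. Models were fitted with limma 3.58.1 in R 4.3.3 (lmFit, eBayes, Benjamini-Hochberg over the 213, threshold 0.05): species and stage class, with 6 residual degrees of freedom, and 6 means for the species difference, with 4. The scripts were tested on simulated data. No stage and day has a replicate array, so the spread comes from days of a class and from the species, and the number of arrays limits the precision.

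Named are the 4 members, other arms of their hairpins, the 5 miRNAs most like and the 3 least like their mean, and up to 4 of each list, those with the largest change in lactation against gestation. The members and lists were chosen with earlier results of these data known. Alternatives were other scalings, normexp background, floor, filter, probe choice, the authors' table, slide, 1 species alone, and each array left out.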

Additional observations from a re-analysis of the deposited data

How the results depend on the processing

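All 4 members kept a change below 0 in lactation against gestation and against not pregnant gland under all 24 alternatives, left-out arrays included. The number of members called did not hold. In lactation against gestation it was 0 in the reported result, 4 with no scaling and with a floor 4 times lower, 1 with normexp, 3 after the 28 miRNAs always at the floor were dropped (chosen with earlier results known), and 0 to 1 with single arrays left out, the 1 being miR-199a-5p without sheep gestation day 125. In lactation against not pregnant gland it was 2, and 0 with quantile normalization, the percentile over all miRNAs, the brightest probe, the authors' value table, with slide as a term, on slide 1 alone, with no filter, in sheep alone or mouse alone, and 0 to 2 with single arrays left out. In sheep against mouse it was 1, 2 with no scaling, where miR-199a-5p joined miR-199b*, and 1 to 2 with single arrays left out. Calls over all miRNAs ranged from 0 to 24 in lactation against gestation (6 reported), 0 to 29 against not pregnant gland (8), 0 to 7 in gestation against not pregnant gland (1), 14 to 95 in sheep against mouse (46) and 0 to 19 in the species difference (2). No scaling shifted the median of all miRNAs by -0.67 in lactation against gestation, by -0.78 against not pregnant gland and by 0.69 in sheep against mouse; normexp shifted the first by 0.65. Values that missed the threshold changed sign as follows. Sheep minus mouse of miR-214 (-0.12) was 0.11 with quantile normalization, 0.74 with no scaling, 0.018 with the lower floor, 0.51 with a slide term, 0.47 on slide 1 alone and -0.51 to 0.23 with single arrays left out, and that of miR-199b (-0.29) was 0.85 with no scaling, 0.10 with slide as a term, 0.042 on slide 1 alone and -0.48 to 0.011 with arrays left out. The species difference in the change was 0.38 (quantile), 0.81 (percentile over all), 0.098 (no scaling) and 0.40 (authors' table) for miR-199a-5p, and -0.13 (quantile), -0.37 (no scaling), -0.65 (normexp), -0.090 (brightest probe) and -0.91 (slide 1 alone and slide as a term) for miR-214. On slide 1 alone and with a slide term it was -0.11 for miR-199b and -0.45 for miR-199b*. With single arrays left out it ranged from -0.80 to 0.64 for miR-199a-5p, -0.11 to 1.14 for miR-199b, -0.45 to 0.90 for miR-199b* and -0.91 to 1.00 for miR-214, and gestation minus not pregnant of miR-199a-5p ranged from -0.48 to 0.13. The cause of these changes was not tested. A floor 4 times lower uses more of the dim miR-214 signal, which background limits on the lactation arrays. Of the 20 late steps, 15 to 20 were below 0 under the other scalings, floors and probe choices. No paired analysis was possible because no animal number in the labels links one array to another.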

Other observations

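The 2 probes of a miRNA differed more on slide 2 than on slide 1. Over 72 other miRNAs with 2 probes that were detected on all arrays, the median ratio of the brighter to the dimmer probe was 4.12 in virgin mice and 4.02 on mouse gestation day 10, the arrays of slide 2, against 2.76 to 3.36 on the 8 arrays of slide 1. Among the members in mouse, miR-199b* and miR-199b had higher ratios on slide 2, and the others did not throughout. For miR-199b* the ratio was 6.14 and 6.11 on slide 2, against 3.03, 3.17 and 3.48 on the 3 mouse arrays of slide 1. On every sheep array, all of them on slide 1, the miR-199b* ratio was higher than on any mouse array. It was 12.3 in sheep cycle, and 11.1, 10.3 and 16.5 on sheep gestation days 14, 64 and 125. The dimmer probe gave 5.88 intensity units on day 125 and 4.65 in lactation, so these ratios rest on a dim signal. The ratio of this member thus differed between sheep and mouse arrays within slide 1, and the cause was not tested. For miR-199b it was 3.60 and 3.74 on slide 2, against 2.49, 2.67 and 2.96. For miR-214 it was 9.54 and 10.1 on slide 2, against 5.55 on mouse gestation day 17 and 64.2 on lactation day 2, where the dimmer probe gave 0.36 intensity units. For miR-199a-5p it was 10.7 and 10.9 on slide 2, against 7.81, 10.5 and 126 on slide 1, the last on lactation day 10, where the dimmer probe gave 0.11 intensity units. Slide 2 holds only virgin and gestation day 10 mice, so slide and stage cannot be told apart in these ratios, and lactation minus gestation on slide 1 alone was -2.16 for miR-199a-5p, -1.51 for miR-199b, -1.60 for miR-199b* and -1.58 for miR-214.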
